A study of Mus musculus with 2 samples.

Results

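Gap junction connexins were followed as 9 genes taken by gene symbol from the annotation of the deposited tables (Gja1, Gja4, Gja5, Gjb1, Gjb2, Gjb6, Gjc1, Gjc3 and Gjd2), of 20 connexin genes and 55536 genes in the gene table. All were measured in 1 group, adrenal glands of male mice aged 2 months of the hybrid strain B6CASTF1/J, an F1 cross of C57BL/6J with CAST/EiJ. It held 2 libraries (biological replicates 1 and 2) of total RNA with ERCC spike-ins, for which a kit that keeps strand was used on 300 ng of RNA. No treatment or genotype was contrasted, so the values are levels, their spread over the 2 libraries, and the difference between those libraries. The labels number the animals differently in the sample descriptions but give both samples 1 donor entry and 1 library description, so the spread may be partly technical.

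A connexin is a protein of 4 membrane-spanning helices. Connexins join into hexameric channels, and a channel of one cell docks with that of its neighbour to form a gap junction through which ions and small molecules such as cyclic AMP pass directly between cells. In the adrenal gland, Cx43, encoded by Gja1, is known as the gap junction protein of the steroid-producing cortical cells, and Cx36, encoded by Gjd2, as one that couples the catecholamine-secreting chromaffin cells of the medulla. Other members are known from vessel walls, from the glia that ensheath nerves and from epithelia.

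The docking surface is the most conserved part of the family, and the stretch of each gene that encodes it is shown because it marks what the 9 members share and where reads can tell them apart. In each coding sequence a script found exactly 1 place where 3 cysteine codons stand with 6 and then 3 codons between them, the spacing of the first extracellular loop, starting between codon 53 and codon 64. The 36 bases (12 codons) are printed from the coding strand of the GENCODE M21 transcripts, 5′ to 3′, with the cysteine codons in capitals.
Gja1: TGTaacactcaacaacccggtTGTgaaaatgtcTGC
Gja4: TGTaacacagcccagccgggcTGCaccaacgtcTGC
Gja5: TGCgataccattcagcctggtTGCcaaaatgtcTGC
Gjb1: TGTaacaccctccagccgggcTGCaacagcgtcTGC
Gjb2: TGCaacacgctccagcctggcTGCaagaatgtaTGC
Gjb6: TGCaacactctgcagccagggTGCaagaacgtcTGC
Gjc1: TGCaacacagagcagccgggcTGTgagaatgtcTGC
Gjc3: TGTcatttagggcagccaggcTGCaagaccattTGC
Gjd2: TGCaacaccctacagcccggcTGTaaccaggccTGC
On GRCm38 these windows lie at chr10:56387706-56387741 (+) for Gja1, chr4:127312774-127312809 (-) for Gja4, chr3:97050788-97050823 (+) for Gja5, chrX:101384324-101384359 (+) for Gjb1 and chr14:57100558-57100593 (-) for Gjb2. The others lie at chr14:57124611-57124646 (-) for Gjb6, chr11:102800984-102801019 (-) for Gjc1, chr5:137957797-137957832 (-) for Gjc3 and chr2:114011797-114011832 (-) for Gjd2. Every window falls within a single coding exon. Over the 36 pairs of members the windows were identical at 18 to 31 of 36 bases, with a median of 26. Gja4 and Gjb1 were the closest pair with 31 identical bases, the neighbouring genes Gjb2 and Gjb6 had 30, and Gja1 and Gjc3 had 18. Over the whole coding sequences, no exact stretch of 31 bases was common to 2 members. Over whole transcripts, read 5′ to 3′ only, Gja1 and Gja5 shared at least 1 exact stretch of that length, and no other members did.

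Gja1 stood far above the other members in both libraries. Its level was 47.33 TPM in replicate 1 and 43.58 TPM in replicate 2 (45.5 ± 2.65 TPM, SD, n = 2), where TPM is a length-corrected share of all transcripts. That level exceeded 94.6% of the 21938 nuclear protein-coding genes. Gja1 held 81.3% and 80.2% of the summed TPM of the 9 members, which was 58.2 in replicate 1 and 54.3 in replicate 2. Its expected counts, the read counts after fractional sharing of ambiguous reads, were 5472 and 4657 of 36182710 and 34149978 counts on genes, so counting error on Gja1 is small. Gja1 lies on chr10:56377330-56402513 (+), and no other annotated gene overlaps it.

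Besides Gja1, which vessel walls also use, Gjc1 was the highest of the members known from vessels. Gjc1 encodes Cx45, a connexin of smooth muscle and the cardiac conduction system, and reached 5.97 and 5.76 TPM from 432 and 402 counts (5.87 ± 0.148 TPM). Gja4, which encodes the endothelial connexin Cx37, reached 1.93 and 1.81 TPM from 119 and 104 counts (1.87 ± 0.0849 TPM). Gja5, which encodes Cx40 of arterial endothelium, reached 0.61 and 0.45 TPM from 56 and 49 counts (0.53 ± 0.113 TPM). The 6 markers of endothelium summed to 177 and 197 TPM with all 6 at 1 TPM or more, and the 6 arterial markers to 14.3 and 14.4 TPM with 4 at that level. The 6 markers of smooth muscle and pericytes summed to 136 and 114 TPM. In whole-gland RNA, fewer cells of a type and less RNA per cell cannot be told apart.

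Gjd2, the neuronal and chromaffin cell connexin Cx36, was at 2.03 and 2.12 TPM from 219 and 213 counts (2.08 ± 0.0636 TPM), which placed it after Gja1 and Gjc1. The 6 chromaffin markers, which hold granins and catecholamine enzymes, summed to 2114 and 1859 TPM with all 6 at 1 TPM or more. The 5 neuron markers summed to 20.7 and 20.1 TPM with 3 at 1 TPM or more in both libraries. Most of that sum was Snap25, at 15.4 and 14.7 TPM. The steroid cell markers of the cortex summed to 10576 and 12063 TPM, also with 6 of 6 at 1 TPM or more. Markers of cortex and medulla were thus present in both libraries, but so were those of fat. The 4 white fat markers summed to 1952 and 1408 TPM, and the 3 brown fat markers to 1373 and 691 TPM. The part of fat in the connexin levels was not tested.

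The connexins of glia and epithelia were at or near the bottom. Gjc3, which encodes Cx29 of myelinating glia, was at 0.11 and 0.12 TPM from 17 and 10 counts. Gjb1, which encodes Cx32 of hepatocytes and Schwann cells, had 2 and 8 counts, or 0.04 and 0.16 TPM. The 6 markers of Schwann cells and glia summed to 17.1 and 11.8 TPM with 4 of 6 at 1 TPM or more, and the 5 hepatocyte markers to 3.54 and 9.51 TPM. Within the hepatocyte list, Alb, which encodes serum albumin, had 66 and 347 counts, higher in the same library as Gjb1. Alb had the widest difference of the 5. Apoa1 (18 and 47 counts), Ttr (13 and 20), Apoc3 (22 and 29) and Serpina1a (21.8 and 24) differed less. The part of hepatocyte RNA in the Gjb1 values was not tested. Gjb2, which encodes Cx26 of many epithelia, had 19 and 26 counts, or 0.21 and 0.31 TPM (0.26 ± 0.0707 TPM). Gjb6, which encodes Cx30 of skin, inner ear and astrocytes, had 0 counts in both libraries. At the length listed for the gene, that allows up to 0.0655 TPM in replicate 1 and 0.0703 TPM in replicate 2 (the level that 3 counts would give, for counting error only). The limit depends on the transcript. Deposited upper bounds, of a level not given, were 0.0376 and 0.0405 TPM for Gjb6-201 but 0.745 and 0.798 TPM for Gjb6-203, of 201 bases. The 5 epithelial markers summed to 0.78 and 1.07 TPM, none of them at 1 TPM in both libraries and Krt5 at 0.

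Ordered by mean TPM, the members ran Gja1, Gjc1, Gjd2, Gja4, Gja5, Gjb2, Gjc3, Gjb1 and Gjb6. Gja1 was 7.75-fold above Gjc1, and Gjc1 was 2.83-fold above Gjd2. Gjd2 and Gja4 were only 1.11-fold apart, and their libraries did not overlap by a narrow margin (lowest Gjd2 value 2.03 TPM, highest Gja4 value 1.93 TPM). Gja4 was 3.53-fold above Gja5 and Gja5 2.04-fold above Gjb2. Gjc3 and Gjb1 were the only neighbours whose libraries overlapped. In all, 4 of 9 members (Gja1, Gjc1, Gjd2 and Gja4) were at 1 TPM or more in both libraries, as were 54.4% of nuclear protein-coding genes. The second deposited quantification, made from reads without alignment and called read-based here, gave the same order of the means, with higher values for the 8 members that had counts. Within it 2 other pairs of neighbours overlapped: Gjd2 (3.21 and 3.88 TPM) with Gja4 (3.66 and 2.95 TPM), and Gjb2 (0.398 and 0.574 TPM) with Gjc3 (0.305 and 0.563 TPM). There Gjc3 did not overlap with Gjb1 (0.0634 and 0.241 TPM).

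**Figure D1:**
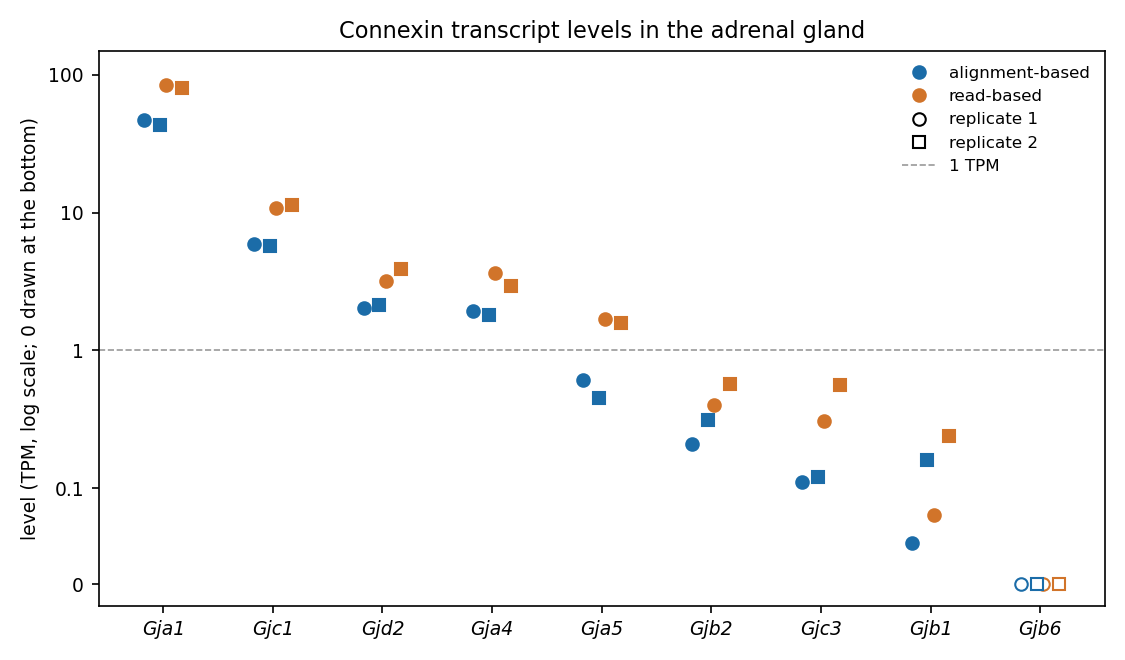
Level of each of the 9 connexins (x axis, by mean) in TPM on a log axis, with circles for replicate 1, squares for replicate 2, blue for the alignment-based and orange for the read-based table; open symbols at the bottom are values of 0. Gja1 lies above all others at 43.58 to 47.33 TPM by alignment, 4 members lie above the dashed line at 1 TPM by alignment, and Gjb6 is at 0 in both libraries by both methods.

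Among the 11 other connexin genes, none reached 1 TPM, and 5 had 0 counts in both libraries. Gjb5, for example, was at 0.21 and 0.15 TPM (13 and 9 counts). With them the family summed to 59 and 54.9 TPM, of which the 9 members made up nearly all. The pannexins, a separate family of large-pore channels that rarely form junctions between cells, included Panx1 at 2.91 and 3.18 TPM, above Gjd2 and below Gjc1. Panx2 was at 0.37 and 0.24 TPM, and Panx3 had 0 counts in both libraries.

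Each library pair was then compared as the ratio of replicate 2 over replicate 1, on counts scaled by TMM (a factor that makes most genes equal). The ratio compares 2 libraries and not conditions, so no p-value is given. Its counting error, and no other, is given by a 95% interval from the exact Clopper-Pearson method. A mean of 20 counts was asked for, which 6 of the 9 members met. None of the 6 was more than 1.5-fold apart, against 6.43% of the 15660 genes compared. Gja1 was at -0.22 on the log2 scale (interval -0.28 to -0.17) and was the only member whose interval left out 0. Intervals lay wholly above 0 for 16.7% of all genes and wholly below 0 for 17.4%, so an interval below 0 was not rare.

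The remaining ratios were smaller than their counting error. Gjc1 was at -0.09 (-0.29 to 0.11), Gjd2 at -0.03 (-0.31 to 0.25), Gja4 at -0.18 (-0.58 to 0.21) and Gja5 at -0.18 (-0.77 to 0.40). Gjb2 was the 1 member with a positive ratio on this scale, 0.45 (-0.45 to 1.40), on 19 and 26 counts. The median over the 6 members was -0.14, beside -0.003 over all 15660 genes. The sign of Gjd2 turned to 0.04 when total counts replaced TMM, which left 4 of 6 members lower in place of 5. With read-based counts Gja5 (0.09), Gjd2 (0.09) and Gjc3 (0.24) were positive beside Gjb2 (0.34), or 4 of 7 members with enough counts. The smaller Gja1 value came with lower marker levels for several cell types in replicate 2. All 6 smooth muscle markers were lower, with a median of -0.40, as were all 6 capsule and fibroblast markers (-0.36), all 6 chromaffin markers (-0.27), all 4 white fat markers (-0.55) and all 3 brown fat markers (-1.10). Among the cortical markers 5 of 6 were higher, with a median of 0.12, and all 6 endothelial markers were higher, with a median of 0.07. The arterial markers were lower in 4 of 5 with a ratio (-0.17), those of Schwann cells and glia in 5 of 6 (-0.44) and those of red cells in 3 of 3 (-0.76). The part of these cell types in the Gja1 ratio was not tested.

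Of 11 genes listed here as partners of connexins, mostly in scaffolding, trafficking, phosphorylation or turnover, 10 were at 1 TPM or more in both libraries. That compares with 54.4% of nuclear protein-coding genes. The exception was Ccn3 at 0.61 and 0.52 TPM, singled out after its values were seen. The highest means belonged to Nedd4, a ubiquitin ligase that acts on Cx43, at 131 ± 6.99 TPM; to Cav1, the coat protein of caveolae, at 60.8 ± 16.7 TPM; to Csnk1d, a casein kinase, at 32.4 ± 0.99 TPM; and to Tjp1, the junctional scaffold ZO-1 that binds the tail of Cx43, at 28.7 ± 0.622 TPM. The ratio was positive for 4 and negative for 7 of the 11, with a median of -0.01. Intervals lay above 0 for 1 (Ezr) and below 0 for 2 (Cav1 and Cnst). Cav1 was the single partner past 1.5-fold on TMM-scaled counts, at 72.6 and 49.05 TPM and a ratio of -0.59, or 1.501-fold lower. On total counts it was 1.43-fold lower and no longer past that limit. Prkca, named after its values were seen, was at 2.47 and 4.13 TPM, relatively wider apart in TPM than Cav1. Its ratio of scaled counts was only 0.14 (-0.07 to 0.34). The white fat markers summed to 1952 and 1408 TPM in the same libraries, and their part in the Cav1 ratio was not tested. Of the pannexins, Panx2 was past 1.5-fold on 47 and 28 counts, with a ratio of -0.73 (-1.47 to -0.03).

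**Figure D2:**
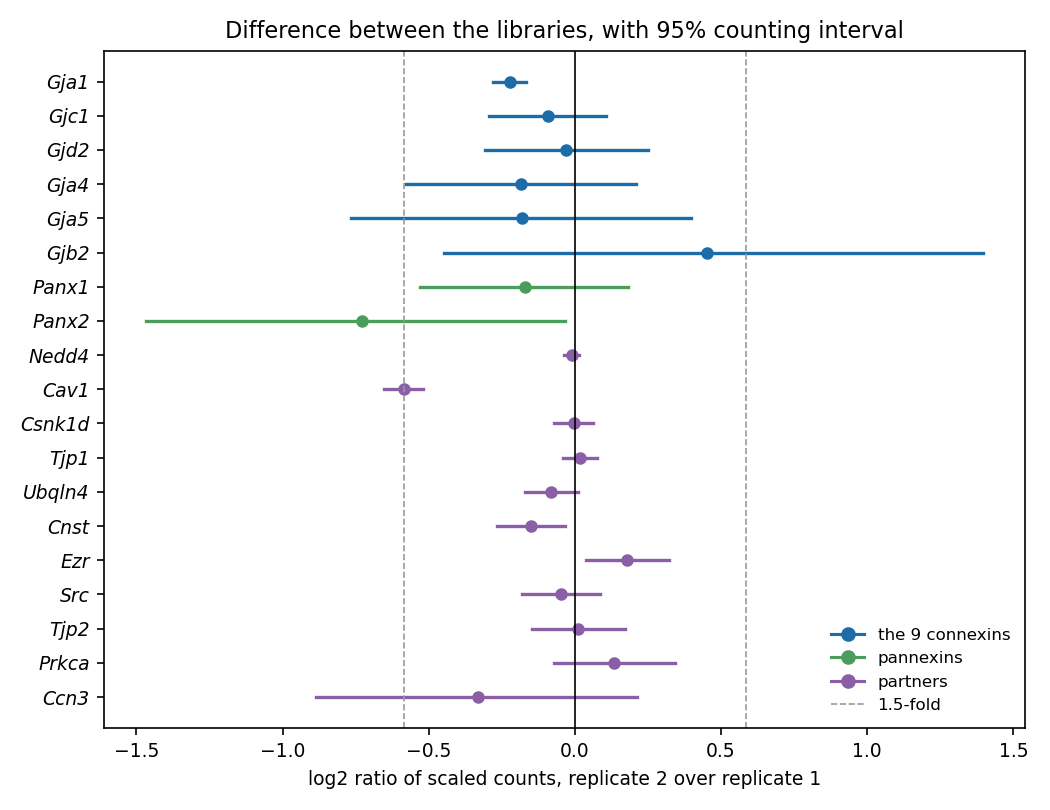
Log2 ratio of TMM-scaled counts, replicate 2 over replicate 1 (x axis), for the members, pannexins and partners with a mean of 20 counts or more, with lines for the 95% counting interval. Colours mark the connexins, the pannexins and the partners, and dashed lines mark 1.5-fold. Among the 6 connexins only the line of Gja1 stays clear of 0, and Panx2 and Cav1 are the points at or past the lower dashed line.

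The gene models decide how far transcripts of a connexin can be told apart. In 7 of 9 members the coding sequence of the leading transcript lies in 1 exon, and in Gjc3 and Gjd2 an intron divides it in 2 exons. Gja1-201 and Gja1-206 have the same coding sequence of 1146 bases and share their last exon of 2882 bases, or 93.8% of Gja1-201 and 90.6% of Gja1-206. They differ in the first exon alone, of 189 bases in Gja1-201 and of 300 bases in Gja1-206, which starts 1758 bases further downstream. Gjc1-201, Gjc1-202 and Gjc1-203 likewise share 1693 bases, coding sequence included, and have first exons of 210, 197 and 621 bases. Whatever the share of each transcript, the encoded protein of these 2 or 3 transcripts is the same.

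**Figure D3:**
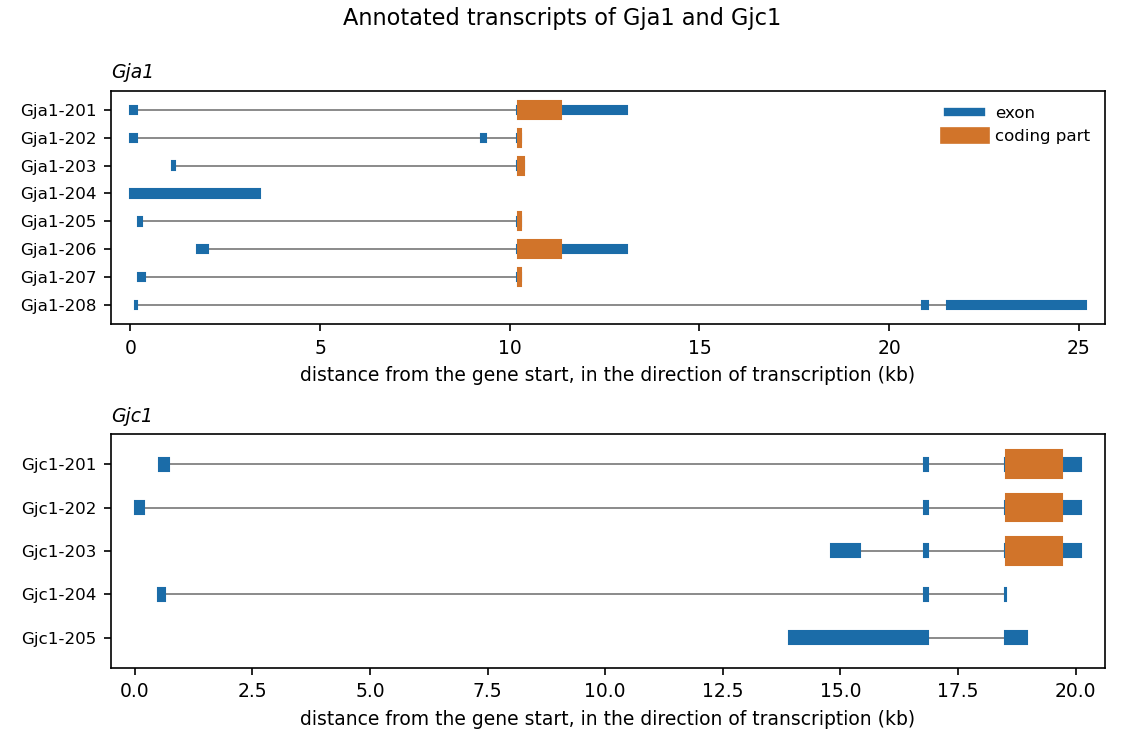
Annotated GENCODE M21 transcripts of Gja1 (top) and Gjc1 (bottom), drawn to scale against the distance from the gene start in kb, with exons in blue, the coding part in orange and introns as lines. Gja1-201 and Gja1-206, and likewise Gjc1-201, Gjc1-202 and Gjc1-203, differ in their first exons and share the exon that holds the coding sequence.

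The 2 deposited quantifications placed the Gja1 reads on different transcripts, and each did so alike in both libraries. By alignment, Gja1-201 held 99% and 98% of the gene's TPM (46.9 and 42.7 TPM) and Gja1-206 was at 0 in both. The deposited bounds, whose level is not given in the sources used here, were 44.4 to 47.1 TPM for Gja1-201 in replicate 1 and ended at 0.881 TPM for Gja1-206. The read-based table instead led with Gja1-206, at 47.4 and 44.9 TPM, or 56.4% and 55.9% of the gene. It gave Gja1-201 34.6 and 33.9 TPM, or 41.1% and 42.2%. The gap between the methods was therefore far wider than the spread between libraries within a method (SD 0.739 percentage points for Gja1-201 by alignment, 0.749 read-based). The retained-intron transcript Gja1-204, which holds intron sequence just after the first start, was low by both, at 0.44 and 0.53 TPM by alignment and 0.73 and 0.95 TPM read-based. Gja1-204 runs from 2 to 3420 bases after the gene start. It therefore contains the first exon of Gja1-206 (1758 to 2057) and nearly all of that of Gja1-201 (0 to 188). The part of this overlap in the gap between the methods was not tested.

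For Gjc1 neither method kept one leading transcript. By alignment, Gjc1-202 led in replicate 1 with 4.46 TPM against 1.09 TPM for Gjc1-201, with bounds of 2.86 to 5.42 and 0.217 to 2.44 TPM that do not overlap. In replicate 2 the same transcripts were level, at 2.27 and 2.32 TPM with overlapping bounds. The read-based table put 9.58 TPM on Gjc1-201 and 0.0918 TPM on Gjc1-202 in replicate 1. In replicate 2 it reversed them, with 1.16 TPM on Gjc1-201 and 7.91 TPM on Gjc1-202. The gene total meanwhile moved only from 5.97 to 5.76 TPM by alignment and from 10.9 to 11.3 TPM read-based. Gjc1-203, which has the longest first exon of its own, was at 0.21 and 0.93 TPM by alignment, below both others. Read-based it was at 0.888 and 1.68 TPM, above the lower of the others in each library.

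Gja1 and Gjc1 were the members at 1 TPM or more with several annotated transcripts, and the methods named the same leading transcript for 0 of the 2. They did so for 76.2% of the 10895 protein-coding genes that met the same terms. Between libraries, Gja1 kept its leading transcript and Gjc1 did not, by alignment (91% of genes kept theirs) and read-based (88.6%) alike. Gjb1, whose 3 transcripts share 1 coding sequence, showed the same exchange on very few reads. Its 2 counts in replicate 1 went to Gjb1-201 and its 8 in replicate 2 to Gjb1-202 by alignment, while the read-based table put 2 on Gjb1-202 and 7 on Gjb1-201.

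**Figure D4:**
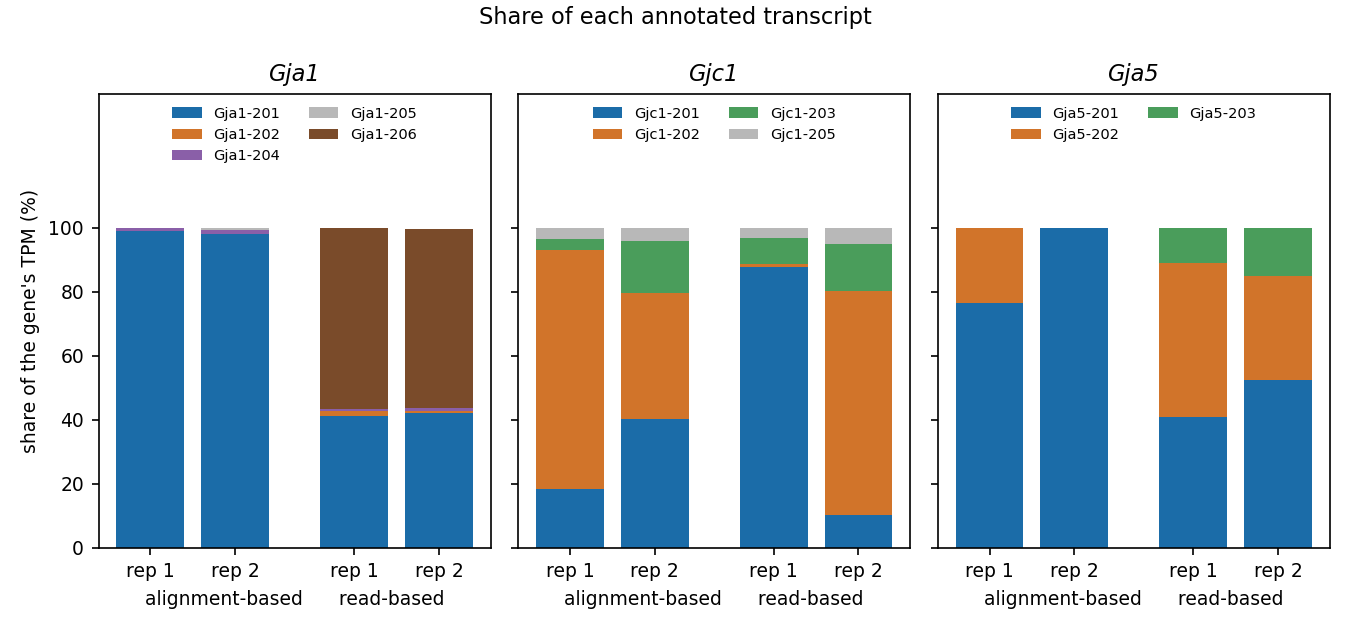
Share of the gene's TPM (y axis, %) on each annotated transcript of Gja1, Gjc1 and Gja5, with bars for replicates 1 and 2 by alignment (left) and read-based (right); transcripts under 0.5% in every bar are left out. Gja1 is nearly all Gja1-201 by alignment and mostly Gja1-206 read-based, and the leading transcript of Gjc1 changes between replicates.

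Short annotated transcripts also moved the gene levels of the weak members. In replicate 1, 1.68 counts on Gja5-202, a fragment of 405 bases, made up 0.14 of the 0.61 TPM of Gja5, and no count was placed there in replicate 2. Read-based, 2.44 and 1.37 estimated counts on it made up 0.813 of the 1.69 TPM of Gja5 in replicate 1 and 0.519 of the 1.59 TPM in replicate 2. The log2 ratio of Gja5 was -0.44 in TPM against -0.18 in counts. In replicate 2, 1 count on Gjc3-202, of 584 bases, gave 0.06 TPM, as much as 9 counts on the 4002-base Gjc3-201. Gjc3 had fewer counts in replicate 2 (10 against 17) yet a TPM no lower.

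At the gene level the read-based values of the members were higher by unequal factors. Read-based TPM was higher for most genes, with a median log2 difference of 0.84 in replicate 1 and 0.92 in replicate 2 over 13363 protein-coding genes. After centring on that median, 0 of the 5 members tested (Gja1, Gja4, Gja5, Gjc1 and Gjd2) were over 2-fold apart in both libraries, against 1.93% of genes. Gja5 was the farthest, with centred differences of 0.50 and 0.70, and the others lay between -0.24 and 0.05. In counts, the read-based value was 1.25 and 1.52 times the alignment value for Gja5, and 1.75 and 3.53 times for Gjc3. For the remaining members with counts the ratio lay between 0.875 and 1.16.

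Sequence shared with other genes was unevenly spread over the members. Of all 31-base words in the transcripts of Gja5, 14.2% also occurred in transcripts of another gene, and of those in Gjc3 6.55%. Gja1 had 1.25%, Gjc1 0.656%, and Gja4, Gjb1, Gjb2, Gjb6 and Gjd2 had 0. Words were compared in the direction of the transcripts only, so sequence shared with genes on the other strand is not in these shares. The members with the highest shares were those with the widest count differences between the methods, and the part of shared sequence in those differences was not tested. Gja5 (chr3:96904693-97077416, +) spans 4 annotated genes on the other strand, which overlap 165 of its 5746 exon bases. Gjd2 (chr2:114009601-114013619, -) has 57 of its 2879 exon bases under 1 such gene. The library kit keeps strand, but the strand setting of the counting is not given in the sources used here, so reads in those bases are uncertain.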

How the data were processed

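The mouse adrenal RNA was sequenced by the submitters, whose labels name mm10. Per the file headers, the deposited tables are alignment-based values per gene and per transcript (expected counts, TPM, FPKM and other bounds of TPM, under column names that RSEM writes) and read-based values per transcript (estimated counts and TPM, under column names that kallisto writes), all made by the authors. Versions and strand settings are not given in the sources used here. Reads of both parental genomes were counted against 1 reference, and the effect of that was not tested.

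Computed here: gene symbols from the read-based table, read-based TPM summed per gene, gene models and sequences from GENCODE M21. Rows that are no genes held 0.904% and 0.885% of counts and were left out. Ratios used counts plus 0.5, with edgeR 4.0.16 TMM factors (from genes at 10 counts or above in each library), R 4.3.3, Python 3.11.15, scipy 1.17.1, and DESeq2 1.42.0 size factors as an alternative. The ratio was tried on simulated counts with a set spread, and the interval on simulated counts with sampling noise alone. That check of the interval cannot speak to spread beyond counting error. The libraries differed beyond sampling noise (a biological coefficient of variation of 0.103 over 16789 genes), so they were not taken for 1 library deposited in duplicate, which does not show that they come from separate animals. Named genes were all 9 members, pannexins and other connexins at 0.1 TPM or more in both libraries (1 result is not reported here), and of the partners the 4 highest and any past 1.5-fold. The members, lists and rules were chosen with earlier results of these data known.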

Additional observations from a re-analysis of the deposited data

How the results depend on the processing

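The 7 results were recomputed under 30 alternatives in all, of which 23 left the result the same (a count within 1.5 times, a sum within its SD) and 7 moved it. The summed TPM of the 9 members, 56.3 on average, was 103 from the read-based table and 187 when TPM was rescaled over nuclear protein-coding genes, with 54.3 to 58.2 when a replicate was left out. The count at 1 TPM or more went from 4 to 5, with Gja5 added, read-based (in replicate 1 only through Gja5-202) and over nuclear protein-coding genes, and was 4 in FPKM and without either replicate. Without replicate 1, 2 members changed rank (Gjb1 and Gjc3 exchanged places), and without replicate 2, 0 did. A minimum mean count of 5 put 2 members past 1.5-fold, Gjb1 and Gjc3. With read-based estimated counts, 2 members in place of 1 had an interval clear of 0, Gja4 being added at -0.49 (-0.89 to -0.10). Without centring, 1 member, Gja5, was over 2-fold apart between the methods. At a minimum level of 0.1 TPM, the methods named the same leading transcript for 2 of 4 multi-transcript members, Gja5 and Gjc3, by the means of both libraries (read-based, Gja5-202 led Gja5 in replicate 1, and by alignment both Gjc3 transcripts were level in replicate 2), and at 1 TPM, with either replicate left out, for 0 of 2. For these the cause was not tested. Of 36 alternatives for single levels, 15 moved a level by more than its SD, all upward. Leaving out 1 of 2 libraries never shifts a mean by more than the SD. Those alternatives could therefore move neither a level nor the sum, and their staying the same carries no weight. Rescaling over nuclear protein-coding genes raises every TPM above 0, so the direction of those moves was fixed as well. No paired analysis was possible because there was 1 group. Counting error limits the members under 20 counts, and 2 libraries limit every SD.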
